A study of Mus musculus with 12 samples.

Results

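The genes described here are 8 markers of alternative macrophage polarization, Retnla, Ear11, Mrc1, Mgl2, Clec10a, Tmem26, Cdh1 and Fcrls, followed through 24 h of IL-4 and a further 3 h of LPS. They were taken by gene symbol from tables of 23847 rows, and each symbol had 1 row. Of these rows, 11191 reached at least 1 FPKM in at least 1 sample and were tested. FPKM counts sequenced fragments relative to transcript length and to the fragments mapped in that library, so levels can be set side by side between genes. The test included 7 of the 8 markers, since Cdh1 stayed below 1 FPKM in every sample. The 8 genes were chosen as IL-4 markers with earlier results of these data known, and those results showed the rise of Retnla, Ear11 and Tmem26 in the comparison of IL-4 with control. Values of that comparison are therefore given for the markers as a description, with no test.

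The cells were bone marrow-derived macrophages (BMDMs), grown from bone marrow of wild-type C57BL/6 mice aged 8 to 12 weeks over 6 days in medium from L929 cells, a source of the growth factor MCSF. Control cells received neither agent, IL-4 cells received 20 ng/ml of the cytokine for 24 h, and LPS cells received 100 ng/ml of the bacterial product for 3 h. The LPS dose is that of the labels, and the study's methods give a molar unit for it. IL-4+LPS cells had the same IL-4 pretreatment before the same LPS. All groups share the genotype and the culture, and each held 3 samples numbered 1 to 3. The study describes the fold changes of these treatments as averages over 3 individual animals from more than 1 independent experiment. The labels do not tie a number to an animal, culture or experiment. P-values therefore measure the spread between these samples, which may in part be technical or lie between experiments.

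IL-4 binds its receptor at the cell surface, the receptor's kinases phosphorylate STAT6, and STAT6 dimers enter the nucleus and bind DNA. The genes that follow in mouse macrophages encode secreted proteins, lectins that take up sugar-bearing ligands, and adhesion molecules, and they are widely used to recognize alternatively polarized cells. LPS acts through the receptor TLR4 and the transcription factor NF-kB and drives inflammatory genes.

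STAT6 dimers prefer the inverted repeat TTCNNNNGAA, in which N is any base, so the sequence upstream of the markers was searched for it. RefSeq start sites on GRCm38.p6, whose coordinates are those of mm10, gave a window of 300 bases for 6 of the 8 markers, from 250 bases before the start to 50 after it. Ear11 was matched through its current symbol Rnase2a, and Clec10a and Cdh1 had no window. The motif reads the same on both strands. It stood in the windows of 2 of the 6 markers, Retnla and Tmem26, and in 6.95% of 32851 promoter windows of the mouse genome. Capitals mark the motif in these stretches, which are shown because Retnla is the most abundant marker and Tmem26 has 2 copies. A match is a description of letters and not evidence of binding.

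Retnla, chr16:48842359-48842550, plus strand: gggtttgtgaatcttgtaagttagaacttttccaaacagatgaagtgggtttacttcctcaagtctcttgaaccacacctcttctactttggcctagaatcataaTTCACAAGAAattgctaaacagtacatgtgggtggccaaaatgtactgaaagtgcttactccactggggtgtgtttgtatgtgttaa

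Tmem26, chr10:68723496-68723645, plus strand: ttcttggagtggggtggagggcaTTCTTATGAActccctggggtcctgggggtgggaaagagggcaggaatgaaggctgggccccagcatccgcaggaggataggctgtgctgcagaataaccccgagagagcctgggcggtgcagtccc

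Tmem26, chr10:68723695-68723724, plus strand: ctttgaagagTTCTCTGGAAgttggagggg

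The Retnla copy began 145 bases before the RefSeq start, and the Tmem26 copies began 227 and 41 bases before theirs. In the GENCODE annotation Tmem26 starts earlier, at chr10:68723646, so the second copy lies within that gene and not upstream of it. Retnla also starts earlier there, at chr16:48842551, so its copy lies nearer to that start but still upstream of it. The shorter spacing TTCNNNGAA was in 8.3% of all windows and the NF-kB-type motif GGGANNTTCC in 1.47%, searched on both strands, and neither was in the window of any of the 6 markers. The STAT6-type motif was also in 2 of the 16 windows found for the other IL-4 response genes described further on.

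Culture identity and depth were checked before the markers were read. All 9 macrophage markers listed, such as Csf1r and Cd68, reached 1 FPKM, while the 5 lymphocyte genes summed to at most 0.448 FPKM in any sample. The macrophage markers were not steady across the groups. They summed to 20000 to 21200 FPKM in control and 7730 to 7990 after IL-4. After LPS the sum was 17200 to 18400 FPKM, and after both 7060 to 7470. Lyz2, the highest of them, averaged 16116 FPKM in control and 4873 after IL-4. The part of these shifts in the marker values was not tested. Neutrophil genes were present and summed to 190 to 534 FPKM in control, 116 to 225 after IL-4, 275 to 639 after LPS and 216 to 489 after both, and their part in the results was not tested. The 7 dendritic cell genes summed to 1.01 to 1.87 FPKM in control and 0.724 to 1.27 after IL-4. After LPS they summed to 1.33 to 2.76 FPKM, and after both to 2.78 to 3.65. The 6 mast cell and basophil genes summed to at most 2.32 FPKM in any sample. The part of these genes was not tested either. Fewer cells of a type and less RNA per cell cannot be told apart in bulk samples. Fragment counts were not used here, so absolute depth is unknown, but the steps of low values put relative depth between 0.99 and 3.3 times that of control replicate 1.

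LPS moved the whole table, so each marker is also read against the median row. The median over the 11191 rows of the difference in log2(FPKM + 1) was -0.41 for IL-4+LPS minus IL-4 and -0.44 for LPS minus control. It was -0.03 for IL-4+LPS minus LPS, where both groups had LPS. In group means of FPKM with no pseudocount, the median share of the IL-4 level kept after LPS was 69.7% over the 11092 of these rows with an IL-4 mean above 0. The pseudocount shrinks the differences of low rows. A marker near the median can therefore lie on different sides of it on these scales.

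The secreted markers had the largest log2 differences between IL-4 and control, 10.09 for Retnla and 7.89 for Ear11, and Retnla was still the row with the second-highest mean in the table after LPS. Retnla (chr16:48842552-48844461, plus strand, protein coding) encodes RELM-alpha, a small cysteine-rich secreted protein. Its level was 5.91, 19.5 and 8.74 FPKM in control replicates 1 to 3, and 11617, 11878 and 13029 FPKM in the IL-4 replicates. LPS alone left 3.48, 2.82 and 6.61 FPKM, and IL-4+LPS gave 9556, 11252 and 10633 FPKM. Every IL-4-treated library was far above every library without IL-4, the IL-4+LPS libraries all lay below the IL-4 libraries, and control and LPS overlapped. Retnla ranked 2 of 23847 rows by mean in both IL-4-treated groups, with 2.56% of all FPKM in IL-4 and 2.18% in IL-4+LPS.

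After LPS, 86.1% of the mean IL-4 level of Retnla remained, 10480 ± 858 against 12175 ± 751 FPKM (SD, n = 3). The difference IL-4+LPS minus IL-4 was -0.22 on the log2 scale (95% confidence interval -0.99 to 0.56, limma adjusted p = 0.59), and relative to the median row it was 0.19. Its sign turned to a positive 0.15 when samples were scaled to a common median, with adjusted p = 0.742 in limma. Against LPS alone, IL-4+LPS was higher by 11.01 (standard error 0.35, limma adjusted p = 1.38e-08). The markers were chosen with earlier results of these data known, so this value is no independent support. Without IL-4, LPS lowered Retnla by -1.14 (standard error 0.35, limma adjusted p = 0.0128). That last value was -0.69 without control replicate 2 (limma adjusted p = 0.0348), and the call was lost without LPS replicate 2, at -0.93 and adjusted p = 0.0518.

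Ear11 (chr14:51255262-51256112, minus strand, protein coding) encodes a secreted ribonuclease of the eosinophil-associated family. It was listed at 0, 0.639 and 0.207 FPKM in control replicates 1 to 3 and at 0, 0.0654 and 0.119 FPKM in the LPS replicates. The IL-4 replicates held 298, 286 and 308 FPKM and the IL-4+LPS replicates 203, 226 and 212 FPKM. Libraries without IL-4 were therefore at or near 0, and the IL-4 and IL-4+LPS groups did not overlap. The level after LPS was 72.0% of the IL-4 level, 214 ± 11.7 against 297 ± 10.96 FPKM (SD, n = 3).

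Ear11 fell by 0.47 on the log2 scale in IL-4+LPS relative to IL-4 (standard error 0.14, limma adjusted p = 0.0128), and relative to the median row the difference was -0.07. The call was lost with a pseudocount of 0.1 at an unchanged size (-0.47, limma adjusted p = 0.457), in the per-gene Tukey comparison (adjusted p = 0.0626) and with median scaling (-0.11, limma adjusted p = 0.512). IL-4+LPS was above LPS by 7.66 (standard error 0.14, limma adjusted p = 6.42e-10), a size that depends on the pseudocount because an LPS library is listed at 0. Ear11 passed the expression filter only through its IL-4-treated libraries. A difference from LPS was therefore fixed by the filter, and its p-value is no support. LPS minus control was -0.24 (limma adjusted p = 0.15). Without control replicate 1, which is listed at 0, it was -0.41 with limma adjusted p = 0.0115.

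Ear11 had relatives with the same order of levels. Ear2 had group means of 1.02 FPKM in control, 82.6 after IL-4, 0.602 after LPS and 56.1 after both, and Ear10 had 0.519, 34.2, 0.375 and 22.0 FPKM in the same order. Ear1 was lower, with 6.73 FPKM in IL-4 and 4.45 in IL-4+LPS. These family members are close copies of one another and reads may be split between them, whereas no 50-base word of the Ear11 transcript was found in a transcript of another gene. Among the 5 eosinophil markers, Epx, the eosinophil peroxidase, was at most 0.238 FPKM and Il5ra at most 0.0241 in any library, while Prg2 reached 10.8 and Ccr3 15.6 FPKM. The 5 markers summed to 13.2 to 16.4 FPKM in control, 6.19 to 7.73 after IL-4, 18.9 to 21.9 after LPS and 7.87 to 13.7 after both, and their part in the Ear11 values was not tested.

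**Figure D1:**
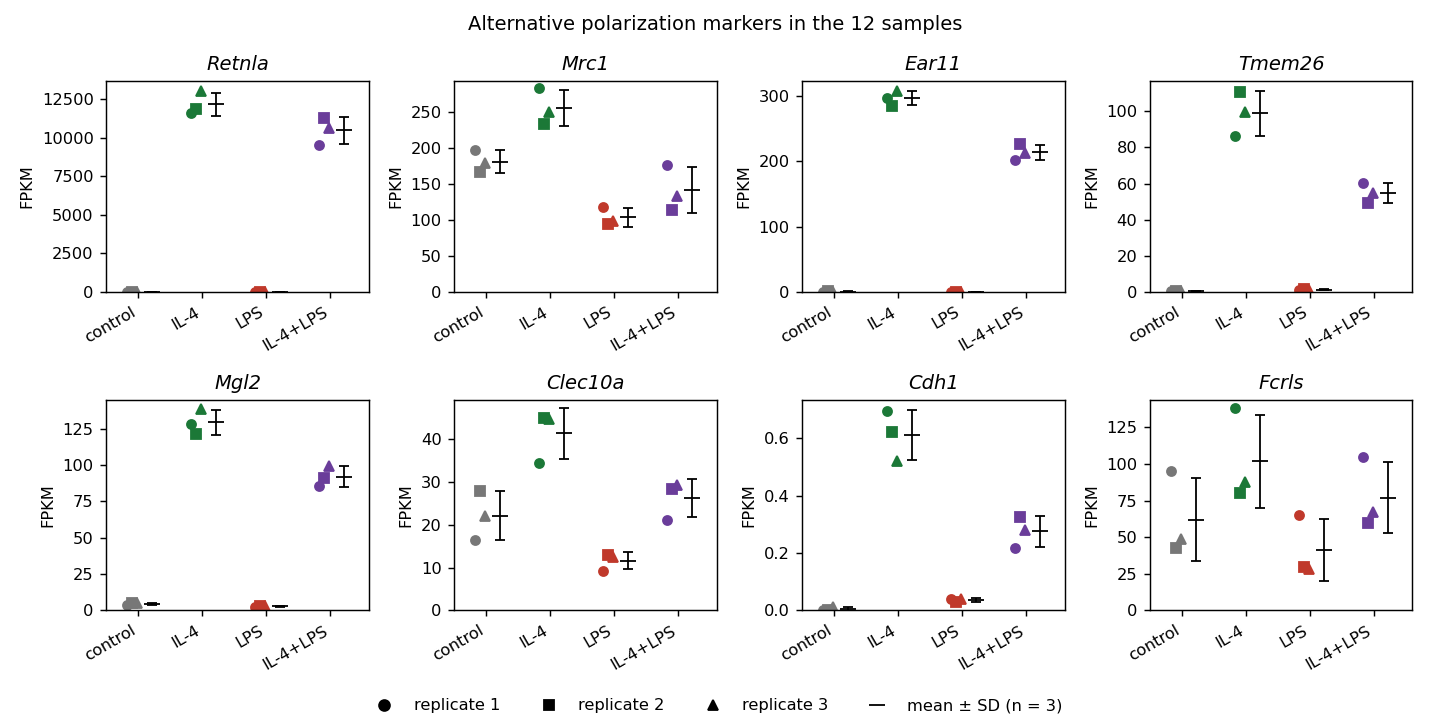
Level of each marker in FPKM (vertical axes, linear, from 0, with a scale of its own in each panel) in the 4 groups, with 1 point per library shaped by replicate number and the mean ± SD (n = 3) beside them. For 7 of the 8 genes the 3 IL-4+LPS points lie below the 3 IL-4 points without overlap, and Fcrls is the exception, with replicate 1 highest in every group. The share of all rows that separate in this way was not counted. In limma, 57.9% of all tested rows were called lower in that comparison, so the separation is no result about the markers.

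The lectin receptors split into Mgl2, with a large difference with IL-4, and Clec10a and Mrc1, with small ones. Mgl2 (chr11:70130357-70137542, plus strand, protein coding) encodes the macrophage galactose-type lectin CD301b. It measured 3.52, 4.95 and 4.76 FPKM in control replicates 1 to 3, 128, 121 and 138 after IL-4, 2.39, 2.70 and 2.98 after LPS, and 85.4, 91.2 and 99.2 after both. No 2 of the 4 groups overlapped, with the order IL-4, IL-4+LPS, control and LPS. After LPS, 71.1% of the IL-4 level remained, and the IL-4+LPS mean was 34.2 times the LPS mean.

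Mgl2 was 4.66 higher in IL-4+LPS than in LPS on the log2 scale (standard error 0.11, limma adjusted p = 1.52e-09). It fell by 0.49 from IL-4 to IL-4+LPS (standard error 0.11, limma adjusted p = 0.00251), which was -0.08 relative to the median row. The same call was lost under median scaling, at -0.13 and limma adjusted p = 0.351. From control to LPS it changed by -0.54 (limma adjusted p = 0.00114), or -0.10 relative to the median row. That direction turned under quantile normalization, to a positive 0.03 with limma adjusted p = 0.811.

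Clec10a (chr11:70166623-70170836, plus strand, protein coding) encodes CD301a, the neighbouring galactose-type lectin. Its levels were 16.6, 27.8 and 22.1 FPKM in control replicates 1 to 3, 34.4, 44.9 and 44.7 after IL-4, 9.27, 12.9 and 12.5 after LPS, and 21.2, 28.3 and 29.4 after both. Replicate 1 was the lowest in each group. IL-4 was the highest group and LPS the lowest, while IL-4+LPS overlapped control. The level after LPS was 63.6% of the IL-4 level and 2.28 times the level in LPS.

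IL-4+LPS was above LPS by 1.12 for Clec10a (standard error 0.20, limma adjusted p = 0.00177) and below IL-4 by -0.64 (standard error 0.20, limma adjusted p = 0.0144). The second call was lost without IL-4+LPS replicate 1 (-0.50, limma adjusted p = 0.0556), in the per-gene Tukey comparison (adjusted p = 0.0785) and under median scaling (-0.28, limma adjusted p = 0.247). LPS minus control was -0.87 (limma adjusted p = 0.00238). Relative to the median row, the changes with LPS were -0.23 after IL-4 and -0.42 without it.

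The ratio of Mgl2 to Clec10a within a sample differed between libraries with and without IL-4. It was 0.202 ± 0.021 in control and 0.235 ± 0.0246 in LPS, against 3.17 ± 0.517 in IL-4 and 3.54 ± 0.423 in IL-4+LPS (SD, n = 3 each). The range was 0.178 to 0.258 over the libraries without IL-4 and 2.70 to 4.02 over those with it. This gap follows from the large Mgl2 differences given above and is a description. The genes share sequence, with 15.3% of the 50-base words of the Mgl2 transcript found in Clec10a and 10.6% of those of Clec10a found in Mgl2, so the split of reads between them is uncertain for those stretches.

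Mrc1 (chr2:14229414-14332023, plus strand, protein coding) encodes the mannose receptor CD206, an endocytic lectin. It was abundant without IL-4, at 198, 167 and 179 FPKM in control replicates 1 to 3, and stood at 284, 234 and 250 in IL-4. LPS gave 118, 94.2 and 98.4 FPKM and IL-4+LPS 176, 114 and 133. IL-4 was above all other groups, and LPS was below control without overlap. IL-4+LPS overlapped both control and LPS.

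After LPS, 55.3% of the IL-4 level of Mrc1 remained, and the fall of 0.87 on the log2 scale passed the test (standard error 0.15, limma adjusted p = 0.000423). LPS minus control was -0.80 (standard error 0.15, limma adjusted p = 0.000652). Relative to the median row these were -0.46 and -0.36. IL-4+LPS against LPS was 0.43 (95% confidence interval 0.09 to 0.77, limma adjusted p = 0.055) and missed the threshold. It passed without LPS replicate 1 (0.53, limma adjusted p = 0.0383), without IL-4+LPS replicate 2 (0.57, limma adjusted p = 0.0198) and under median scaling (0.45, limma adjusted p = 0.0393). In each group replicate 1 was highest and replicate 2 lowest. With the replicate number as a block, IL-4+LPS against LPS also passed (0.43, limma adjusted p = 0.00126). The labels do not say what a number marks.

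The remaining membrane proteins ranged from near absence to moderate levels in control cells. Tmem26 (chr10:68723746-68782654, plus strand, protein coding) encodes a transmembrane protein that is also used as a marker of beige fat cells. It rose from 0.360, 0.642 and 0.640 FPKM in control replicates 1 to 3 to 86.1, 111 and 99.5 in IL-4. LPS alone gave 1.11, 1.49 and 1.08 FPKM and IL-4+LPS 60.1, 49.5 and 54.6. No groups overlapped, and the order was IL-4, IL-4+LPS, LPS and control.

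Tmem26 was the single tested marker that LPS raised in the absence of IL-4, by 0.53 on the log2 scale (standard error 0.12, limma adjusted p = 0.00256), although its LPS mean was only 1.23 ± 0.226 FPKM (SD, n = 3). In IL-4-pretreated cells it fell by 0.84 (standard error 0.12, limma adjusted p = 0.000119), to 55.4% of the IL-4 level, and relative to the median row the difference was -0.43. IL-4+LPS remained 44.6 times the LPS mean, a log2 difference of 4.65 (standard error 0.12, limma adjusted p = 3.32e-09). Without LPS, IL-4 and control differed by 6.01, so the IL-4 difference on this scale was smaller with LPS than without. That comparison holds the values the markers were chosen on and was not tested.

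Cdh1 (chr8:106603368-106670246, plus strand, protein coding) encodes E-cadherin, a calcium-dependent adhesion molecule. It stayed low throughout. Control replicates 1 and 2 were listed at 0 and replicate 3 at 0.0120 FPKM, and IL-4 replicates 1 to 3 held 0.696, 0.622 and 0.522 FPKM. LPS gave 0.0383, 0.0303 and 0.0414 FPKM and IL-4+LPS 0.219, 0.328 and 0.280. The groups did not overlap, and the order was IL-4, IL-4+LPS, LPS and control.

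Cdh1 kept 44.9% of its IL-4 level after LPS, the smallest share among the 8 genes. It was below the expression filter and took no part in the counts below. In a limma fit with no filter, IL-4+LPS minus IL-4 was -0.34 (adjusted p = 5.5e-05) and IL-4+LPS minus LPS was 0.30 (adjusted p = 0.000532). Epithelial markers were at or near 0, and Krt8, Krt18, Krt19 and Cldn4 were listed at 0 in all 12 libraries. The 6 epithelial markers summed to 0 in the IL-4 libraries and to at most 0.251 FPKM in any library. The catenins that join cadherins to the cytoskeleton were expressed in all groups, with means of 112 to 168 FPKM for Ctnnb1.

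Fcrls (chr3:87250965-87263524, minus strand, protein coding) encodes an Fc receptor-like scavenger receptor best known from microglia. Its levels were 95.01, 42.8 and 48.5 FPKM in control replicates 1 to 3, 138, 79.9 and 87.6 after IL-4, 65.5, 29.5 and 28.0 after LPS, and 105, 59.6 and 67.2 after both. Replicate 1 was the highest library of each group. The groups overlapped in every comparison made, including IL-4 against control.

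The mean level of Fcrls after LPS was 75.7% of that in IL-4. No comparison passed the test. IL-4+LPS minus LPS was 0.96 (95% confidence interval 0.10 to 1.83, limma adjusted p = 0.0884), IL-4+LPS minus IL-4 was -0.40 (95% confidence interval -1.27 to 0.47, limma adjusted p = 0.374), and LPS minus control was -0.61 (limma adjusted p = 0.18). Without LPS replicate 1, the first was 1.35 (limma adjusted p = 0.0207) and the third -0.995 (limma adjusted p = 0.0305). With replicates 2 and 3 only, an alternative added after seeing the data, all 3 passed, at 1.11, -0.40 and -0.65 (limma adjusted p = 8.34e-05, 0.00406 and 0.000326). They also passed with the replicate number as a block, the first at limma adjusted p = 0.000133 and the second at 0.00684. The labels do not say what a number marks.

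The microglial marker Sall1 was listed at 0 in all 12 libraries, and the 5 microglial markers summed to 11 to 20.1 FPKM in control, 1.05 to 2.85 after IL-4, 2.61 to 3.94 after LPS and 1.45 to 1.93 after both. The highest of them in control was Gpr34, with a mean of 10.8 FPKM there and 0.899 after IL-4. Their part in the Fcrls values was not tested. Fcrl1, a related receptor, had group means of 11.03 FPKM in control, 1.08 after IL-4, 4.15 after LPS and 0.643 after both.

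Over the tested markers, the difference made by IL-4 was still present after LPS in most. In IL-4+LPS against LPS, 5 of 7 rose (Retnla, Ear11, Tmem26, Mgl2 and Clec10a), against 15% of all tested rows called higher. None fell in limma or in a per-gene Tukey comparison, since all 7 differences were positive, against 15.8% of all tested rows called lower. The median log2 difference was 4.65 over the markers and -0.03 over all rows. Ear11 passed the expression filter only through its IL-4-treated libraries, so for that gene a difference was fixed by the filter. All the markers were chosen as IL-4 markers with earlier results of these data known. The count is therefore a description and no independent support. The same holds for the single p-values of Mgl2, Clec10a and Tmem26 in this comparison.

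Against IL-4 alone, the markers moved down with most of the table. In IL-4+LPS against IL-4, 5 of 7 fell (Mrc1, Ear11, Tmem26, Mgl2 and Clec10a), where 57.9% of all rows were called lower, and none of the 7 rose in limma or the Tukey comparison, where 15% were called higher, since all 7 differences were negative. A count of this size is near that background and is no result about the markers. The median log2 difference was -0.49 over the markers and -0.41 over all rows. This comparison shares the IL-4 libraries with the one the markers were chosen on. Under median scaling, 2 of the 7 were called lower (Mrc1 and Tmem26), with 36.3% of all rows lower and 23.5% higher.

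Without IL-4, LPS lowered 4 of the 7 markers (Retnla, Mrc1, Mgl2 and Clec10a), where 57.7% of all rows were called lower, and raised 1 (Tmem26), where 16.9% were called higher. Both counts are near those shares and are no result about the markers. The median log2 difference was -0.61 over the markers and -0.44 over all rows. The control libraries are shared with the comparison used in the choice. Under median scaling 2 markers were called lower, with 39.8% of all rows lower and 26.5% higher.

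**Figure D2:**
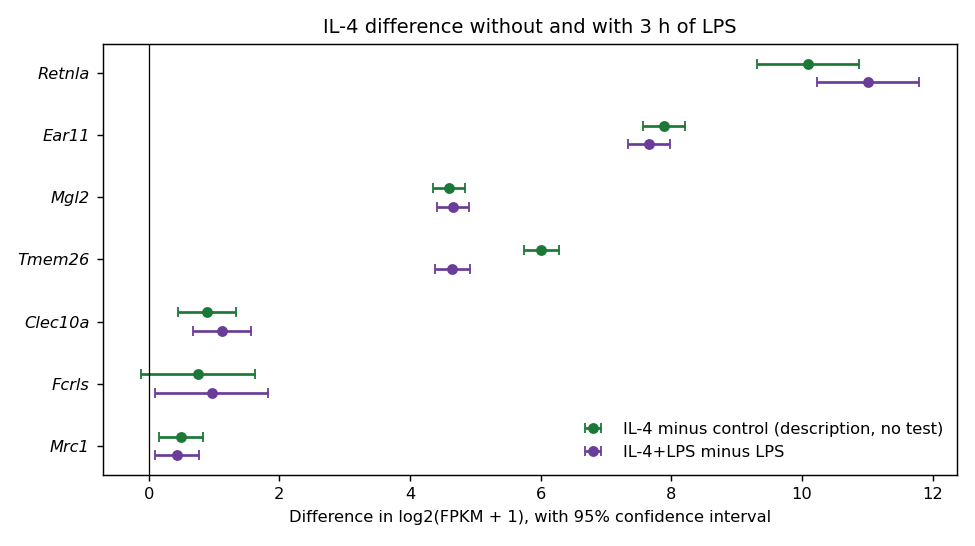
Difference in log2(FPKM + 1) between cells with and without IL-4 (horizontal axis, with 95% confidence intervals from limma, 3 samples a group) for the 7 tested markers, in the absence of LPS (green) and after 3 h of LPS (purple). The purple points run from 0.43 for Mrc1 to 11.01 for Retnla, and Tmem26 shows the widest gap between the colours, 6.01 without and 4.65 with LPS.

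By the share of the IL-4 level kept after LPS, the order of the 8 markers was Retnla (86.1%), Fcrls (75.7%), Ear11 (72.0%), Mgl2 (71.1%), Clec10a (63.6%), Tmem26 (55.4%), Mrc1 (55.3%) and Cdh1 (44.9%). On the same scale of FPKM means, the median over rows was 69.7%. Against the median row on the log2 scale, the 7 tested markers ran from -0.46 for Mrc1 to 0.19 for Retnla. Ear11 (-0.07) and Mgl2 (-0.08) lay just below the median row there, but above the median share of FPKM means. Their side of the median thus depends on the scale. The share of the IL-4 gain kept, IL-4+LPS minus LPS over IL-4 minus control in mean FPKM, gave another order. It was 90.7% for Fcrls, 86.1% for Retnla, 76.8% for Clec10a, 72.0% for Ear11, 71.5% for Mgl2, 54.5% for Tmem26, 50.7% for Mrc1 and 39.2% for Cdh1. That share holds the comparison the markers were chosen on and is a description. Differences between neighbours in either order were not tested.

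The markers kept their IL-4 level within a range that some other genes of the IL-4 response shared, while others of those genes changed far more. A list of 24 such genes was taken, of which 22 were tested, and Alox15 and Cd209a were below the filter. In IL-4 against control, 20 of the 22 rose, where 16% of all rows were called higher, and the other 2, Tgm2 (-0.52, limma adjusted p = 0.177) and Il4ra (-0.55, limma adjusted p = 0.21), did not pass the test. In IL-4+LPS against IL-4, 9 rose, 9 fell and 4 did not pass, with a median of -0.38. Over all rows, 15% were called higher and 57.9% lower. Chi3l3 kept 78.0% of its IL-4 level after LPS, Mmp12 75.2%, Chi3l4 73.0%, Ear2 68.0%, Arg1 54.3% and Pdcd1lg2 48.6%. These lay within the markers' range of 44.9% to 86.1%, and the other tested genes of the list lay outside it. The list was chosen as IL-4 response genes with earlier results known, so its count in IL-4 against control is no independent evidence.

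The genes that fell most encode transcription factors. Pparg, a lipid-sensing nuclear receptor, changed by -3.36 on the log2 scale (standard error 0.27, limma adjusted p = 1.66e-06) and kept 9.61% of its IL-4 level. Egr2 changed by -3.16, Myc by -2.80 and Klf4 by -2.37, and they kept 12.7%, 10.8% and 12.9%. Each marker described here kept at least 44.9%.

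The genes that rose most encode chemokines and an amino acid transporter. Ccl22 rose by 4.50 (standard error 0.46, limma adjusted p = 8.7e-06), Ccl17 by 4.06 and Ccl24 by 3.62, all ligands that attract leukocytes, and Slc7a2, which carries arginine, by 3.19. Ccl17 reached 64.0 FPKM in IL-4+LPS, from 2.72 in IL-4 and 0.317 in LPS. No tested marker rose in this comparison.

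In IL-4+LPS against LPS, 17 of the 22 other genes were higher, 1 lower and 4 not called, with a median of 2.50, where 15% of all rows were called higher. Arg1, Ccl17 and Pdcd1lg2 stayed below 1 FPKM in every control and LPS library and passed the filter only through IL-4-treated libraries, so a difference of these 3 was fixed by the filter. The list was chosen with earlier results known, so the count of 17 is no independent evidence. The largest increases were those of Ccl17 (5.48), Ear2 (5.21), Ccl24 (4.78) and the chitinase-like Chi3l3 (4.37). Il4ra, the receptor chain that binds IL-4, was the 1 lower gene (-2.42, standard error 0.32, limma adjusted p = 0.000265), and LPS alone raised it from 24.5 to 180 FPKM on average. With replicates 2 and 3 only, 3 genes were lower. In LPS against control, 8 rose, 6 fell and 8 did not pass, where 16.9% of all rows were called higher and 57.7% lower.

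**Figure D3:**
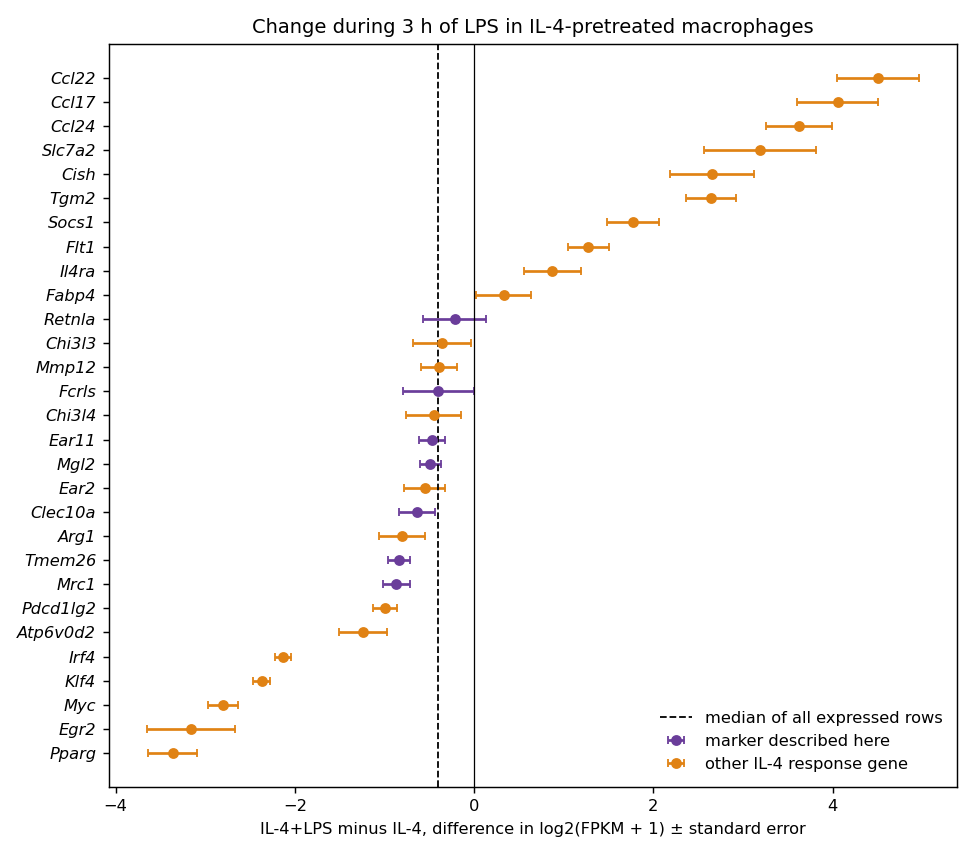
Change from IL-4 to IL-4+LPS in log2(FPKM + 1) with its standard error (horizontal axis, limma, 3 samples a group) for the 7 tested markers (purple) and the 22 other IL-4 response genes (orange), ordered by the change, with the median of all expressed rows as a dashed line. The markers lie between -0.87 and -0.22, near the dashed line at -0.41, while the other genes run from -3.36 for Pparg to 4.50 for Ccl22. Arg1, Ear2, Chi3l4, Mmp12 and Chi3l3 lie among the markers.

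Genes most like each marker were found by Pearson r of log2(FPKM + 1) over the 12 samples, among 10732 rows with a group mean of at least 1 FPKM. Since most of the variance of these genes lies between the groups, r is a description of the group pattern. The rows most like Retnla were Ear11 and Mgl2 (r = 0.997 each), and those most like Mgl2 were Ear11 and Retnla (r = 0.997 each). Ear11 was most like Fn1, fibronectin (r = 0.9985), and then Retnla. Fn1 averaged 19.5 FPKM in IL-4 and 17.9 in IL-4+LPS, against 0.241 in control and 0.277 in LPS.

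Tmem26 was most like Mt3, a metallothionein (r = 0.994), and Ocstamp, a membrane protein of multinucleated cells (r = 0.993). Mrc1 was most like Atp6ap2 (r = 0.986) and Bnip3l (r = 0.985), and Clec10a most like Large (r = 0.994) and Plp2 (r = 0.993). Bnip3l had means of 29.9 FPKM in control, 43.2 after IL-4, 11.7 after LPS and 18.1 after both. Cdh1 was most like Socs2, a feedback inhibitor of cytokine signalling (r = 0.983), and Scn3a (r = 0.980). Fcrls was most like the chemokine gene Ccl6 (r = 0.964) and Cyp4f18 (r = 0.944), and Ccl6 had means of 199 FPKM in control, 318 after IL-4, 130 after LPS and 225 after both.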

How the data were processed

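RNA from BMDMs was poly-A selected, and the libraries were sequenced as paired reads. The deposited values are FPKM, which the authors computed with Cufflinks 2.0.2 after mapping reads to mm10 with TopHat2 2.0.7 (versions per the submitters' processing notes; the annotation is not given in the sources used here). Replicates were not pooled. FPKM is relative to each sample's mapped fragments, so a change in RNA composition shifts other genes. The 12 tables were joined by row, and rows with at least 1 FPKM in at least 1 sample were kept. A group-means model of log2(FPKM + 1) over all 12 samples was fitted in limma 3.58.1 (R 4.3.3, eBayes with an intensity trend), which understates changes of low genes. P-values were adjusted by Benjamini-Hochberg over 11191 rows, with a threshold of 0.05. The script was tested on simulated data. Groups came from the labels. Other IL-4 genes were named by size of change (the 4 largest each way in IL-4+LPS against LPS and against IL-4), and likeness by the 2 highest r for each marker. The members and lists were chosen with earlier results of these data known. Sequences came from RefSeq. Figures were drawn with matplotlib 3.10.9.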

Additional observations from a re-analysis of the deposited data

Results flagged for a closer look

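Tmem26 was singled out because LPS moved it in opposite directions without and with IL-4, with no overlap between the groups compared. The mean was 2.24 times control in LPS (0.547 FPKM in control) and 0.554 times IL-4 in IL-4+LPS (98.8 FPKM in IL-4). Cdh1 moved in the same 2 directions, 9.18 times control in LPS, where 2 of the 3 control libraries are listed at 0, and 0.449 times IL-4 in IL-4+LPS (0.613 FPKM in IL-4). The difference between the 2 responses was not tested for either gene. Every Cdh1 value is below 1 FPKM, and its ratio to control rests on means of 0.0367 and 0.00399 FPKM.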

How the results depend on the processing

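Over all alternatives, 431 of 461 values of single markers kept their direction and their side of the threshold, 15 newly passed it, 13 no longer did and 2 turned. Many of these fits could change only the p-value. Leaving out a sample of a group not compared leaves the difference itself as it was. So do another filter, no intensity trend, the compared groups alone, the replicate block and the Tukey comparison. The count is therefore no measure of how firm the directions are. A fit of the compared groups alone gave no value for Ear11 in LPS against control, which is below the filter there. Under median scaling, 2 markers were called lower in IL-4+LPS against IL-4 (5 as reported), and a per-gene Tukey comparison called 3. In LPS against control, quantile normalization and median scaling each called 2 lower (4 as reported), and the Mgl2 difference turned to 0.035 under quantile normalization. The Retnla difference in IL-4+LPS against IL-4 turned to 0.147 under median scaling. The number of other IL-4 genes lower in IL-4+LPS against LPS was 1, and leaving out 1 replicate at a time gave 1 to 2 (2 without LPS replicate 1 or IL-4+LPS replicate 1). It was 3 with replicates 2 and 3 only, a fit added after seeing the data. With the replicate number as a block it was 2. The replicate block also brought Mrc1 (adjusted p = 0.00126 in limma) and Fcrls (0.000133) past the threshold in IL-4+LPS against LPS, giving 7 markers higher in place of 5. It brought Fcrls past it in IL-4+LPS against IL-4 (0.00684) and LPS against control (0.000578), and changed no other call of a marker. Samples that share a number share only that number in the labels. Their deviations from the group means correlated with a mean r of 0.124 (0.00236 to 0.386), over 0.1 in 11 of 18 pairs, and 7 of 12 samples correlated best with their own number. The Retnla fall in LPS against control also missed the threshold under quantile normalization (adjusted p = 0.128 in limma), median scaling (0.06), a fit of the compared groups only (0.0543) and the Tukey comparison (0.0799). With 3 samples a group, absolute depth unknown and some values at 0, the size of folds against the lowest groups is poorly fixed.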
